A study of Mus musculus with 2 samples.

Results

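The cytosolic ribosomal protein (RP) genes were read in single-cell RNA sequencing (scRNAseq) counts of E15.5 mouse trunk skin from 1 HIRA WT and 1 HIRA KO library. Members were chosen by symbol and by count: a symbol made of Rpl or Rps and a number, with an optional a, x, y or l and further digits behind it, or one of *Rplp0*, *Rplp1*, *Rplp2* and *Rpsa*, and at least 100 unique molecular identifiers (UMIs) summed over both libraries. Of the 28000 genes in the files, 84 matched the symbols and 82 reached the minimum. The UMI sum chose the members, so how abundant they are is a description. Just inside the minimum lay *Rpl39l*, with 145 UMIs in WT and 136 in KO, and outside it lay *Rpl10l*, with 13 and 11 UMIs, and *Rpl3l*, with 2 and 0. Of the 82 members, 32 encode proteins of the small subunit and 50 of the large subunit or its stalk, and the annotation lists 81 as protein-coding and *Rpl6l* as a processed pseudogene. They lie on 19 chromosomes, with 4 of them on X. The symbols reached 77 of 79 listed core RP genes.

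A ribosome of the cytosol joins a small subunit, which reads the mRNA, and a large subunit, which links the amino acids, and each holds its proteins in fixed numbers. The mRNAs of these proteins are short and abundant, and many start with a terminal oligopyrimidine (TOP) stretch through which growth signals switch their translation. In mouse skin the genes are known from pigmentation mutants: changes in *Rps19* and *Rps20* darken the skin, and a mutation of *Rpl24* leaves a white belly spot.

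HIRA is a histone chaperone, and the study asked what its loss does to embryonic melanoblasts, the precursors of pigment cells. Both embryos carried Cre recombinase under the *Tyr* promoter and a *Rosa26-LSL-tdTomato* reporter that Cre turns on, on a mixed background close to C57BL/6J. The WT embryo was *TyrCre::Hira wt/wt:tdTomato*, and the KO embryo was *TyrCre::Hira fl/fl:tdTomato*, in which Cre deletes *Hira*. Live tdTomato+ cells were sorted from dissociated trunk skin and run on the 10x Chromium platform, which counts the 3′ ends of mRNAs, so that a UMI count needs no scaling by gene length. The *Tyr* promoter also drives Cre in other lineages of the neural crest, and the sorted cells were a mixture of types. With 1 library per genotype there was no replicate, so nothing was tested; each interval is at 95% and covers counting error only.

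*Hira* itself had 82 UMIs in WT and 50 in KO over all kept cells, or 11.6 and 10.01 counts scaled to 1000000 UMIs (CPM). In melanoblast-like cells it had 35 UMIs in WT and 3 in KO, a log2 KO/WT ratio of -1.97 (-4.32 to -0.31). The counts were 18 and 9 in glial-like cells and 9 and 17 in mesenchymal-like cells, where both intervals included 0, so a loss was not detectable there at this depth. A 3′ tag can lie outside the deleted part of the gene, so these counts check the labels only weakly. The tdTomato sequence had 55 and 71 UMIs, although tdTomato was the marker of the sort. *Xist*, which is transcribed from the inactive X of females, had 16822 UMIs in WT and 23 in KO, and the Y-linked *Eif2s3y* had 0 and 220. The WT library was thus female and the KO library male, and genotype, sex and library cannot be told apart in any ratio below.

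The WT library held 1546 barcodes and 7073939 UMIs, the KO library held 846 barcodes and 5049514 UMIs, and no barcode was shared. Filtering left 1540 and 828 cells, with a median of 3967.5 and 5204.5 UMIs per cell. Cells were clustered without the RP genes, and clusters were named by marker genes: the melanoblast-like clusters each raised 8 of 9 markers such as *Dct* and *Mlana*, the glial-like clusters 7 to 9 of 10 such as *Fabp7* and *Gfra3*, and the mesenchymal-like clusters 8 or 9 of 10 such as *Twist2* and *Lum*. These main classes held 534, 448 and 230 cells in WT and 139, 254 and 274 in KO. A further 8 classes were smaller, and since the names were rebuilt from markers, they may differ from those of the study.

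RP mRNAs were among the main components of the sequenced mRNA in most cell types of the skin, and far less so in neutrophil-like and erythroid-like cells. Over all kept cells they were 30.7% in WT and 27.6% in KO, but the libraries held cell types in different proportions, so the classes were read one by one. Melanoblast-like cells had the highest share of the classes in WT, 34.8% (34.8 to 34.9%), and in KO it was 33.2% (33.1 to 33.3%), but this rank rests on 1 cluster, led by *Mt2*, without which its WT clusters had 32.9% and 33.1%. Keratinocyte-like cells (33.9% in WT and 29.7% in KO) and monocyte or dendritic-like cells (33.3% in WT and 29.6% in KO) followed in WT. The class with most RP in KO was adipocyte-like, with 31.1% in WT and 34.3% in KO, from 45 and 8 cells. Mesenchymal-like cells had 28.9% (28.8 to 29.02%) in WT and 26.98% (26.9 to 27.04%) in KO. In glial-like cells the shares were 27.1% (27.1 to 27.2%) and 25.6% (25.5 to 25.7%). Endothelial-like cells (30.4% in WT and 28.2% in KO), mast cell-like cells (29.2% in WT and 28.5% in KO, from 92 and 3 cells) and macrophage-like cells (26.8% in WT and 28.8% in KO) lay in the same range. The order of the classes was not the same in the libraries, and their cells overlapped widely.

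At the low end, neutrophil-like cells had 7.78% in WT and 13.6% in KO, from 7 cells in each library. Erythroid-like cells had 0.981% in WT and 1.49% in KO, from 5 and 19 cells. Haemoglobin mRNAs took 94.9% and 92.4% of their UMIs, and of the remaining UMIs RP genes were 19.1% and 19.6%. Their low share was thus in part a share of a pool filled by haemoglobin. Small-subunit members took 42.4% of all RP UMIs in WT and 42.4% in KO. Among the 3 main classes this share ran from 42.01% to 42.6% in WT, while macrophage-like cells stood higher at 44.5% and mast cell-like cells lower at 40.1%.

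**Figure D1:**
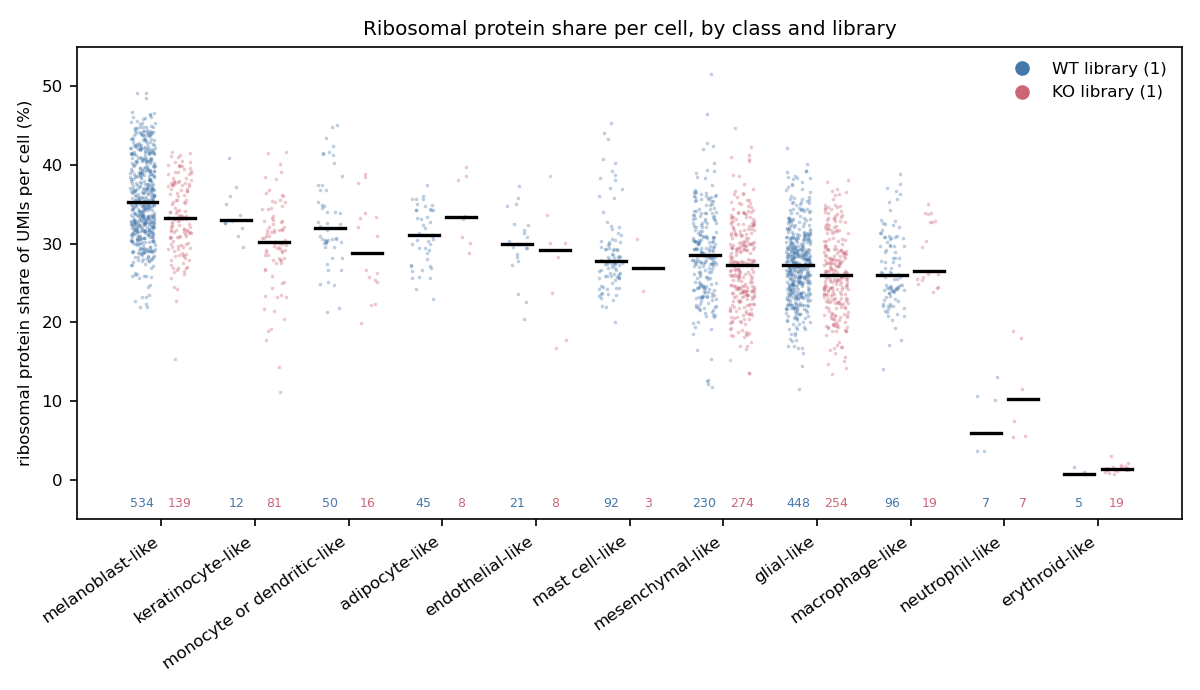
Share of the UMIs of each cell that came from the 82 RP genes (%), by class and library. Each point is a cell, black lines are medians over cells and the numbers under the points count cells; the WT and KO cells of each main class overlap, with medians of 35.3% and 33.2% in melanoblast-like cells.

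The RP share was slightly lower in the KO library than in the WT library in each of the 3 main classes when all their cells were summed. The log2 KO/WT ratio of the share was -0.071 (-0.078 to -0.065) in melanoblast-like, -0.086 (-0.092 to -0.079) in glial-like and -0.10 (-0.11 to -0.094) in mesenchymal-like cells. In percentage points KO minus WT was -1.68, -1.57 and -1.96, while the SD over the cells of a class was 5.30 points in WT melanoblast-like, 4.65 in WT glial-like and 5.82 in WT mesenchymal-like cells. Of the KO cells, 87 of 139 melanoblast-like (62.6%), 152 of 254 glial-like (59.8%) and 163 of 274 mesenchymal-like cells (59.5%) lay under the WT median of their class. These SDs hold counting noise and cluster makeup, and do not measure how far libraries of 1 genotype differ.

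The melanoblast-like ratio rested on 1 of the 3 clusters of that class. Cluster 0, led by the pigment genes *Pmel* and *Mlana*, had 32.9% in 144 WT cells and 34.1% in 84 KO cells, a log2 ratio of 0.051 (0.042 to 0.060). Cluster 1, which held the cell cycle genes *Top2a* and *Pbk* among its leading genes, had 33.1% and 31.97% (-0.050) in 157 and 35 cells. Cluster 4, led by the metallothionein gene *Mt2*, had 38.4% and 32.3%, a ratio of -0.25 (-0.27 to -0.23), and held 233 WT cells but 20 KO cells, so it may be a state of 1 library and not a cell type. In it 38 of 80 counted members had a log2 ratio of -0.25 or lower, with a median of -0.24, beside 23.3% of the 1088 genes with at least 100 UMIs there, the members among them. In the other clusters together 1 of 81 members had such a ratio, beside 29.1% of 2752 genes. With at least 1000 UMIs, 38 of 79 members in cluster 4 had such a ratio, beside 30.5% of 151 genes. In the other clusters it was then 0 of 80 members, beside 15.3% of 333 genes. Without cluster 4, an alternative chosen after seeing the data, the melanoblast-like ratio turned to 0.011 and the median ratio of the members to 0.011. With each library clustered alone, where 216 WT cells were named melanoblast-like, the ratio of the share was -0.016. That clustering left unnamed a WT cluster of 187 cells with *Mt2* among its leading genes. A WT cluster of 151 cells with *Top2a* and *Pbk* was also left unnamed, and both were nearest to the melanoblast markers. It may thus leave out many cells of cluster 4 and is not an independent check. No direction can be given for melanoblast-like cells as a whole.

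In glial-like cells each of the 5 clusters had a lower share in KO, from -0.041 in cluster 3 to -0.20 in cluster 5, which was led by *Sostdc1* and held the myelin gene *Mbp* among its leading genes. That cluster had 25.6% in 120 WT cells and 22.3% in 56 KO cells. The mesenchymal-like cells of the libraries differed in cluster makeup: cluster 2, led by *Crabp1*, held 184 WT and 118 KO cells (29.5% and 28.3%), cluster 14, led by *Mfap5*, held 43 and 130 (26.3% and 25.9%), and cluster 13, led by *Acta2*, 3 and 26 (26.1% and 26.4%). With KO clusters weighted as in WT, an alternative chosen after seeing the data, the mesenchymal-like ratio was -0.053 in place of -0.10.

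Several other measures differed between the libraries beside the RP share, and their part in it was not tested. KO cells held more UMIs, with medians of 4335 and 5654 in WT and KO melanoblast-like cells. In some groups the RP share was lower in deeper cells: in the WT melanoblast-like cells it was 38.1% in the shallowest of 3 equal groups of cells, 36.2% in the middle and 32.6% in the deepest group, with a Spearman correlation of -0.43 over 534 cells of 1 library. The same correlation was -0.26 in the 139 KO cells, -0.16 and -0.39 in WT and KO glial-like cells, and -0.046 and -0.15 in mesenchymal-like cells. The WT mesenchymal-like cells did not follow it, with 28.6%, 29.9% and 28.5% from shallowest to deepest. Among cells with 3000 to 6000 UMIs the log2 ratios were -0.060 in melanoblast-like, -0.050 in glial-like and -0.055 in mesenchymal-like cells, the last 2 of them smaller by over 1.5 times than with all cells. Mitochondrial mRNAs took 2.89% of melanoblast-like UMIs in WT and 3.29% in KO, 3.33% and 3.75% in glial-like, and 2.18% and 2.50% in mesenchymal-like cells. Over cells, the Spearman correlation of the RP share with the mitochondrial percentage was 0.49 (WT) and 0.39 (KO) for the melanoblast-like class. For the glial-like class it was 0.064 and 0.24, and for the mesenchymal-like class -0.065 and 0.026. Each value was taken within 1 library, and its bearing on the difference between libraries was not tested. The nuclear RNA *Malat1* stood at 11961 and 15523 CPM and the ribosomal RNA-like *Gm42418* at 609 and 1239.9 CPM in melanoblast-like cells. Haemoglobin UMIs, which these cells should not make, were 0.00786% of their UMIs in WT and 0.112% in KO.

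The remaining classes did not share a direction. The log2 ratio was -0.19 (-0.21 to -0.17) in keratinocyte-like cells (12 WT and 81 KO cells), -0.17 (-0.19 to -0.15) in monocyte or dendritic-like cells (50 and 16) and -0.11 (-0.14 to -0.080) in endothelial-like cells (21 and 8). It was 0.099 (0.085 to 0.11) in macrophage-like cells (96 and 19) and 0.14 (0.12 to 0.16) in adipocyte-like cells (45 and 8). In mast cell-like cells the interval included 0, at -0.036 (-0.086 to 0.015). Neutrophil-like (0.80, 0.71 to 0.89) and erythroid-like cells (0.60, 0.39 to 0.82) held under 20 cells in either library.

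Gene by gene, most members had ratios close to each other, and a few stood apart. Of the 81 members with at least 100 UMIs in melanoblast-like cells, 1 had a log2 KO/WT ratio of CPM of -0.25 or lower, where 20.9% of all genes with as many UMIs did, and 2 had 0.25 or higher, against 17.7% of all genes. In glial-like cells 4 of 81 members were at -0.25 or lower (20% of all genes) and 2 at 0.25 or higher (16.1%). In mesenchymal-like cells these were 2 of 82 (21.8%) and 2 of 82 (21.8%). RP genes are abundant and counted precisely, so the same was read where at least 1000 UMIs per class were counted, with 80 members remaining in each: 3 members in melanoblast-like, 5 in glial-like and 2 in mesenchymal-like cells passed 0.25 in either direction, against 20%, 20% and 32.7% of all such genes. The members' counts thus lay under the background in each class. As shares of the RP pool, the members at -0.25 or lower were 0, 1 and 1 and those at 0.25 or higher 2, 4 and 3. No count over all genes was made on that scale, so the background shares above do not apply to it. Among members with at least 1000 UMIs the mesenchymal-like count at -0.25 or lower was 0, because *Rpl39l* and *Rpl7l1*, the 2 counted there, had few UMIs. The median ratio of the members was -0.070, -0.085 and -0.12 in the 3 main classes in this order, beside -0.026, -0.042 and -0.034 for all genes. The comparisons are of the same pair of libraries, and the values are given side by side.

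**Figure D2:**
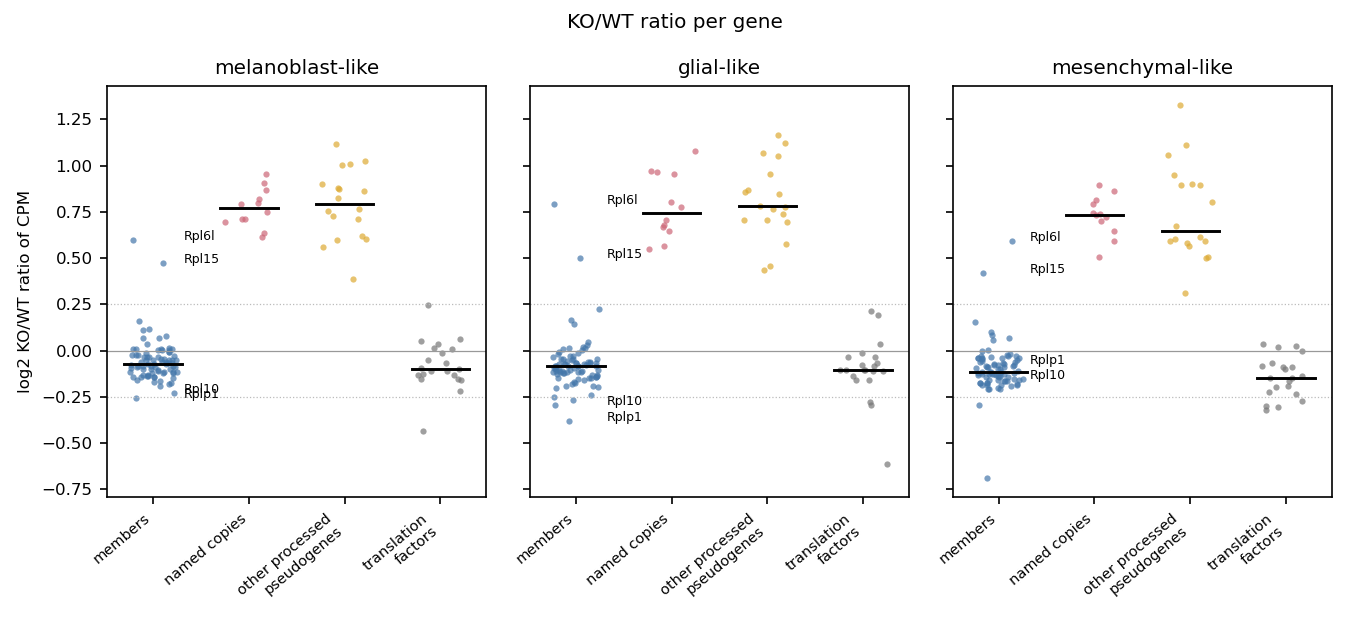
log2 KO/WT ratio of CPM per gene (vertical axis) in the 3 main classes for the RP members, the named pseudogene and retrogene copies outside the symbol rule, the 18 other processed pseudogenes over the minimum in any of these classes, and a list of translation factors and other TOP mRNAs, with genes as points, medians as black lines and dotted lines at 0.25 and -0.25. Most members lie near 0, with *Rpl6l* and *Rpl15* above, the copies lie higher, and without the cluster led by *Mt2* the members' median in melanoblast-like cells is 0.011.

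At the low end stood *Rplp1*, which encodes an acidic stalk protein that helps draw elongation factors to the ribosome. In glial-like cells it had a WT level of 4059 CPM and a KO level of 3116 CPM, a log2 ratio of -0.38 (-0.44 to -0.32), and in melanoblast-like cells 6183 and 5172 CPM, or -0.26 (-0.31 to -0.21) as a ratio. Mesenchymal-like levels were 4951 and 4717 CPM, with a ratio of -0.070 (-0.12 to -0.020). The other stalk genes lay closer to the members' median in melanoblast-like and glial-like cells, but not in mesenchymal-like cells: *Rplp0*, which anchors the stalk, had 6324 and 6014 CPM in melanoblast-like cells (-0.073), and *Rplp2*, the partner of *Rplp1*, had 4522 and 4164 CPM (-0.12). In glial-like cells *Rplp0* and *Rplp2* had ratios of -0.14 and -0.065, and in mesenchymal-like cells of -0.19 and -0.18. Without the cluster led by *Mt2*, the melanoblast-like ratio of *Rplp1* was -0.18. That of *Rplp0* turned to 0.0045 (-0.046 to 0.055), and that of *Rplp2* was -0.054 (-0.11 to 0.0060).

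Also low was *Rpl10*, an X-linked gene whose protein joins the large subunit late in its maturation. It had a WT level of 4826 CPM and a KO level of 4123 CPM in melanoblast-like cells, a ratio of -0.23 (-0.28 to -0.17). In glial-like cells it had 4599 and 3749 CPM (-0.29, -0.35 to -0.24), and in mesenchymal-like cells 4563 and 4107 CPM (-0.15, -0.20 to -0.099). The value of *Rpl10* is uncertain, because reads may be shared with *Rpl10-ps3*, whose transcript is identical to it over 740 aligned bases. Summed with that copy, the ratio was -0.096, -0.16 and -0.016. The other X-linked members were *Rps4x* of the small subunit (4804 and 4202 CPM in melanoblast-like cells, -0.19, -0.25 to -0.14), *Rpl39* of the peptide exit tunnel (6963 and 6164 CPM, -0.18, -0.22 to -0.13) and *Rpl36a* (2971 and 2984 CPM, 0.0066, -0.059 to 0.072). Their ratios were -0.094, -0.15 and -0.11 in glial-like cells and -0.17, -0.18 and -0.084 in mesenchymal-like cells. These genes lie on the chromosome by which the libraries differ in number, and *Rpl36a* stood near 0 in melanoblast-like cells while the others stood below. Without the cluster led by *Mt2*, *Rpl36a* was at 0.097 (0.024 to 0.17) in melanoblast-like cells. *Rpl39* was then at -0.11 (-0.16 to -0.057), *Rps4x* at -0.15 and *Rpl10* at -0.18.

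The rest of the lowest ratios came from large-subunit genes, from *Rps2* and from paralogues with few UMIs. In glial-like cells *Rpl28* had 2590.4 and 2175 CPM (-0.25, -0.32 to -0.18). In mesenchymal-like cells *Rps2*, at the mRNA entry of the small subunit, had 4049 and 3501 CPM (-0.21, -0.27 to -0.15), and *Rpl13a* had 4511 and 3908 CPM (-0.21, -0.26 to -0.15). Of the same genes in the other main classes, *Rpl28* was at -0.16 in melanoblast-like and -0.21 in mesenchymal-like cells, *Rps2* at -0.13 and -0.18 in melanoblast-like and glial-like cells, and *Rpl13a* at -0.13 and -0.17. In none of these was the ratio above 0. Without the cluster led by *Mt2*, the melanoblast-like ratio of *Rpl28* was -0.10 (-0.17 to -0.027). Those of *Rps2* (-0.061, -0.12 to 0.00095) and *Rpl13a* (-0.036, -0.094 to 0.022) then had intervals that included 0.

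At the high end, *Rpl15* stood apart from the other large-subunit genes in each main class. It had a WT level of 1779 CPM and a KO level of 2467 CPM in melanoblast-like cells, a ratio of 0.47 (0.40 to 0.55), 1267 and 1794 CPM in glial-like cells (0.50, 0.41 to 0.59) and 1398 and 1871 CPM in mesenchymal-like cells (0.42, 0.33 to 0.51). Without the cluster led by *Mt2* its melanoblast-like ratio was 0.51. A processed pseudogene, *Gm10020*, is 99.7% identical to it over 612 bases, so its reads may be split, and summed with this copy *Rpl15* was at 0.51, 0.55 and 0.51. Among members with at least 100 UMIs in a class, the only one with a higher ratio was *Rpl6l*, itself annotated as a copy of *Rpl6*. *Rpl6l* had a WT level of 618 CPM and a KO level of 935 CPM in melanoblast-like cells (0.60, 0.47 to 0.72), 416 and 721 CPM in glial-like (0.79, 0.65 to 0.94) and 484 and 729 CPM in mesenchymal-like cells (0.59, 0.44 to 0.74). Its parent *Rpl6* had 5091 and 4631 CPM in melanoblast-like cells, and the pair summed gave -0.036, -0.020 and -0.038 in the 3 classes.

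*Rpl27* of the large subunit also lay above 0, with a WT level of 2118 CPM and a KO level of 2368 CPM in melanoblast-like cells (0.16, 0.086 to 0.24) and ratios of 0.17 in glial-like and 0.15 in mesenchymal-like cells. It also has a counted copy, *Rpl27-ps3*, identical over 411 bases, and is uncertain for the same reason. *Rpl35*, which sits near the exit of the peptide tunnel, had 5430.0 and 5878 CPM in melanoblast-like cells (0.11, 0.067 to 0.16). Its ratio was -0.035 in glial-like and 0.085 in mesenchymal-like cells. Without the cluster led by *Mt2*, its melanoblast-like ratio was 0.20 (0.15 to 0.25). *Rpl36*, another large-subunit gene, lay below 0, with 5196 and 4704 CPM in melanoblast-like cells and ratios of -0.14, -0.20 and -0.12 in the 3 classes, but without the cluster led by *Mt2* its melanoblast-like ratio was -0.048 (-0.10 to 0.0091). *Rpl5* and *Rpl11* are the proteins that, off the ribosome, bind Mdm2 and so release p53. *Rpl5* had 1202 and 1298 CPM in melanoblast-like cells (0.11, 0.0090 to 0.21), 941 and 1099 CPM in glial-like (0.22, 0.12 to 0.33) and 946 and 1012 CPM in mesenchymal-like cells (0.098, -0.015 to 0.21). *Rpl11* had 3879 and 3742 CPM in melanoblast-like cells, with ratios of -0.052, -0.081 and -0.12, but it has 2 counted copies, and its sign depends on them.

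Members with pigment or skeletal mutants in mice lay among the rest. *Rps19*, whose mutation darkens the skin, had 6656 and 6545 CPM in melanoblast-like cells and ratios of -0.024 there, 0.010 in glial-like and -0.16 in mesenchymal-like cells. *Rps20*, the other dark-skin gene, had 2692 and 2643 CPM and ratios of -0.026, 0.045 and 0.068. *Rpl24*, of the belly spot mutant, had 3368 and 3178 CPM, at -0.084, -0.12 and -0.14. None of these passed 0.25 in either direction. For *Rps7* the levels were 3929 and 3915 CPM (-0.0051, -0.027 and -0.071), and for *Rpl27a* they were 3555 and 3409 CPM (-0.061, -0.10 and -0.16). *Rpl38*, known for its role in the axial skeleton, had 4673 and 4339.6 CPM (-0.11, -0.046 and -0.12). Without the cluster led by *Mt2*, *Rps19* stood at 0.086 (0.037 to 0.13) in melanoblast-like cells, and *Rps20* (0.050), *Rps7* (0.086) and *Rpl27a* (0.054) were also above 0, while *Rpl24* (-0.0050) and *Rpl38* (-0.053) were below. Their melanoblast-like directions are therefore not given.

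The members differed widely in level among themselves, and 69 of the 100 genes with most UMIs over both libraries were members. The most abundant was *Rpl41* (chromosome 10), which encodes a very short basic peptide of the large subunit, with 102583 UMIs in WT and 67682 in KO, or 1.45% and 1.34% of all UMIs. In melanoblast-like cells it had 14879 and 13929 CPM (-0.095, -0.13 to -0.065), and in glial-like cells 13789 and 13737 CPM (-0.0054, -0.035 to 0.024). Its mesenchymal-like ratio was -0.099, and without the cluster led by *Mt2* its melanoblast-like ratio was 0.0094. Next came *Rps29*, a small zinc-binding protein of the small subunit, with 68468 and 40490 UMIs and ratios of -0.15, -0.15 and -0.14. *Rpl37a* of the large subunit (55834 and 33939 UMIs) was at -0.097, -0.13 and -0.16. Without the cluster led by *Mt2*, the melanoblast-like ratio was -0.053 for *Rps29* and -0.022 (-0.065 to 0.020) for *Rpl37a*. *Rps28* and *Rps27* of the small subunit completed the 5 most abundant. *Rps28* (52190 and 33595 UMIs) was at -0.064, -0.083 and 0.0052. *Rps27* (48212 and 31918 UMIs) was at -0.053, -0.075 and -0.091. Without the cluster led by *Mt2*, *Rps28* turned to 0.058 (0.014 to 0.10) and *Rps27* to 0.059 (0.012 to 0.11) in melanoblast-like cells. Their melanoblast-like directions are therefore not given. At least 10000 UMIs were counted for 79 members, and the median member had 38858.

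Copies of RP genes stood higher in the KO library in each cell class that counted them in both. RP genes have left many processed pseudogenes in the mouse genome, and reads of a parent and a near-identical copy are hard to tell apart, so the values of both are uncertain. A set of 16 copies of 15 parents named in the annotation, of which *Rpl6l* is itself a member and the others, such as the retrogene *Rps27rt*, lie outside the symbol rule, was read as a share of copy and parent UMIs after its values had been seen. Over all kept cells the copies took 11.1% in WT, from 53009 copy UMIs, and 18.03% in KO, from 59874. In melanoblast-like cells these shares were 11.03% and 17.9%, in glial-like cells 11.2% and 18.4%, and in mesenchymal-like cells 11.2% and 18.2%. Apart from erythroid-like cells, where WT had no copy UMI beside 26 parent UMIs and KO had 7.54% from 23 copy UMIs, under the range of every other class, the WT classes lay between 10.6% and 14.02% and the KO classes between 17.2% and 18.4%, so these classes did not overlap between libraries. Cell by cell, from the 10th to the 90th percentile, melanoblast-like cells ran from 9.04% to 13.2% in WT and from 15.8% to 20.03% in KO. By depth, the shallowest, middle and deepest of 3 groups of cells had 11.3%, 11.3% and 10.9% in WT and 18.6%, 18.3% and 17.7% in KO. The part of library processing, of sex and of genotype in this difference was not tested and cannot be told apart here.

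**Figure D3:**
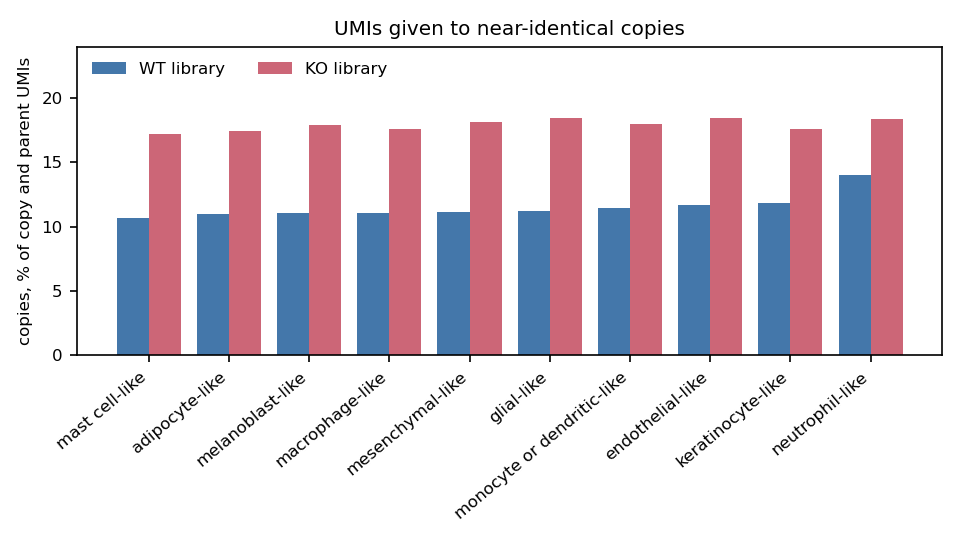
Share of the UMIs of 16 copies in the UMIs of these copies and their 15 parent genes together (%), by class and library. Bars start at 0 and erythroid-like cells are left out; the KO bars lie between 17.2% and 18.4%, above each WT bar.

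Copies with and without differences from their parent shared the pattern. *Rps27rt*, identical to *Rps27* over 341 aligned bases, had 2033 and 3291 CPM in melanoblast-like cells (0.70, 0.63 to 0.76), 1964 and 3072 CPM in glial-like (0.65) and 1929 and 3018 CPM in mesenchymal-like cells (0.65). *Rps12-ps3*, identical to *Rps12* over 494 bases, had 1087 and 1661 CPM in melanoblast-like cells (0.61, 0.52 to 0.71). For *Rpl23a-ps3*, 99.8% identical to *Rpl23a*, the levels were 759.5 and 1472 CPM (0.95, 0.85 to 1.06), and for *Rps18-ps3*, 99.3% identical to *Rps18*, they were 169.9 and 319 CPM (0.91, 0.68 to 1.13). A less similar pair did not share it: *Rpl36al*, a protein-coding gene 87.7% identical to *Rpl36a*, took 27.8% of the UMIs of the pair in WT and 28.4% in KO, with melanoblast-like levels of 1001 and 1014 CPM (0.019, -0.094 to 0.13). *Fau*, the most abundant RP gene outside the symbols, had 3824 and 3396 CPM (-0.17, -0.23 to -0.11). Over the 16 RP genes and copies outside the symbols with at least 100 UMIs in a main class, the median ratio was 0.71 in melanoblast-like, 0.67 in glial-like and 0.71 in mesenchymal-like cells, with 13 at 0.25 or higher in each. The share of all genes with as many UMIs at 0.25 or higher was 17.7%, 16.1% and 21.8%.

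Pseudogenes with other names did the same, and these too were chosen after their values were seen. Of 18 other processed pseudogenes, 10 are nearest to a member by sequence and 8 to another gene, such as *Gm9843* to *Fau* and *Gm8186* to the splicing gene *Snrpg*. The ratio was 0.25 or higher in 18 of 18 with at least 100 UMIs in melanoblast-like cells, in 17 of 17 in glial-like and in 17 of 17 in mesenchymal-like cells, with medians of 0.79, 0.78 and 0.62. Among all genes with as many UMIs, 17.7%, 16.1% and 21.8% had such a ratio in these classes. The pattern was therefore not particular to copies of RP genes. It bears on the members, because UMIs counted for a copy may belong to its parent. A counted copy exists for 23 members, and read alone these had median ratios of -0.064, -0.083 and -0.12 in the 3 classes. Summed with their copies, the medians were 0.059, 0.011 and 0.0014, and 8, 9 and 8 of the 23 went from below 0 to above it, of which 7, 4 and 3 had an interval of the sum that lay above 0. The other members, without a counted copy, had medians of -0.081, -0.094 and -0.11. With the RP genes and copies outside the symbols added to the pool, the log2 ratio of the RP share was -0.047, -0.062 and -0.076, and with the 10 other pseudogenes nearest to a member added as well, an alternative chosen after seeing the data, it was -0.036 in melanoblast-like, -0.052 in glial-like and -0.066 in mesenchymal-like cells.

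Single members show what the copies can do to a direction. *Rps27* went from -0.053 alone to 0.14 with *Rps27rt* in melanoblast-like cells, from -0.075 to 0.12 in glial-like and from -0.091 to 0.11 in mesenchymal-like cells. *Rps28* with *Gm10263* was at 0.055, 0.029 and 0.14, and *Rps7* with *Gm9493* at 0.15, 0.12 and 0.039. *Rplp0* with *Gm8730* was at 0.075, 0.013 and -0.032, and *Rpl11* with its 2 copies at 0.059, 0.032 and 0.0014. For *Rpl27* the sum with its copy was 0.28, 0.30 and 0.28. For *Rpl36* it was -0.050, -0.11 and -0.018. No direction is given for members with a counted copy whose sign depends on it.

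Some members have a paralogue, and each pair of paralogue and parent gene had its own balance. *Rpl22l1* outnumbered *Rpl22* over all kept cells, with 13262 against 10030 UMIs in WT and 8570 against 6061 in KO, or 56.9% and 58.6% of the pair. Among classes with at least 50 WT cells its WT share ran from 43.1% in monocyte or dendritic-like cells and 46.96% in macrophage-like cells to 60.2% in melanoblast-like and 64.7% in mast cell-like cells. The KO library had 47.7%, 48.1%, 61.6% and 71.1% in these classes, the last from 38 UMIs of the pair, so macrophage-like and monocyte or dendritic-like cells were again below melanoblast-like cells. *Rps27l*, which has also been described as a p53 target, took 12.8% of its pair with *Rps27* in WT and 11.7% in KO, with the highest WT share in adipocyte-like cells (18.9%, and 15.1% in KO). *Rpl7l1* took 3.42% and 2.95% of its pair with *Rpl7*.

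*Rpl39l*, best known from male germ cells, had most of its UMIs in 1 class. Mesenchymal-like cells held 134 of its 145 UMIs in WT and 118 of 136 in KO, while melanoblast-like and glial-like cells held 3 each in WT and 4 each in KO. By level, it had 29.2 CPM from 5 UMIs in KO macrophage-like cells and 29.4 CPM from 3 UMIs in KO adipocyte-like cells. In WT its levels in these classes were 1.69 and 0 CPM. It took 2.16% (1.81 to 2.55%) of its pair with *Rpl39* in WT mesenchymal-like cells and 1.52% (1.26 to 1.82%) in KO, at levels of 120.1 and 74.4 CPM (-0.69, -1.06 to -0.32). The KO and WT mesenchymal-like cells differed in cluster makeup, and its part in this ratio was not tested. With each library clustered alone, 239 WT and 172 KO cells were named mesenchymal-like. There 0 of 82 members were at -0.25 or lower, so the ratio of *Rpl39l* did not reach -0.25 under that clustering. *Rpl7l1* was also low, with 74.7 and 65.9 CPM in melanoblast-like (-0.18, -0.64 to 0.26), 69.6 and 57.8 CPM in glial-like (-0.27, -0.72 to 0.17) and 74.4 and 60.6 CPM in mesenchymal-like cells (-0.30, -0.74 to 0.14), intervals that each include 0. *Rpl3l*, a muscle paralogue of *Rpl3*, and *Rpl10l*, a germ cell paralogue of *Rpl10*, were too rare to compare.

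Seen as shares of the RP pool, which takes out its overall level, the members differed between cell types, and several of these differences recurred in the second library. For each member the share of the pool in a class was set against its share over all cells of the library, over the 6 WT and 4 KO classes with at least 50 cells. Apart from *Rpl39l*, which was absent from mast cell-like cells in WT, large SDs of this log2 ratio over the WT classes were those of *Rpl22l1* (0.41), *Rpl41* (0.37) and *Rpl7a* (0.33). The smallest were those of *Rps14* (0.046), *Rps13* (0.053) and *Rpl9* (0.070), so these 3 were close to constant parts of the pool in WT. Mast cell-like cells stood apart in WT, with *Rpl41* at 0.68 and *Rpl7a* at -0.76 on this scale, but KO held 3 such cells. Macrophage-like cells had more *Rps29* (0.69 in WT and 0.47 in KO), in KO from 19 cells. The KO SDs, from fewer and partly other classes, were 0.19 for *Rpl22l1*, 0.19 for *Rpl41*, 0.082 for *Rpl7a* and 0.049 for *Rps14*, so the large value of *Rpl7a* was not seen in KO, where mast cell-like cells were not among the classes.

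**Figure D4:**
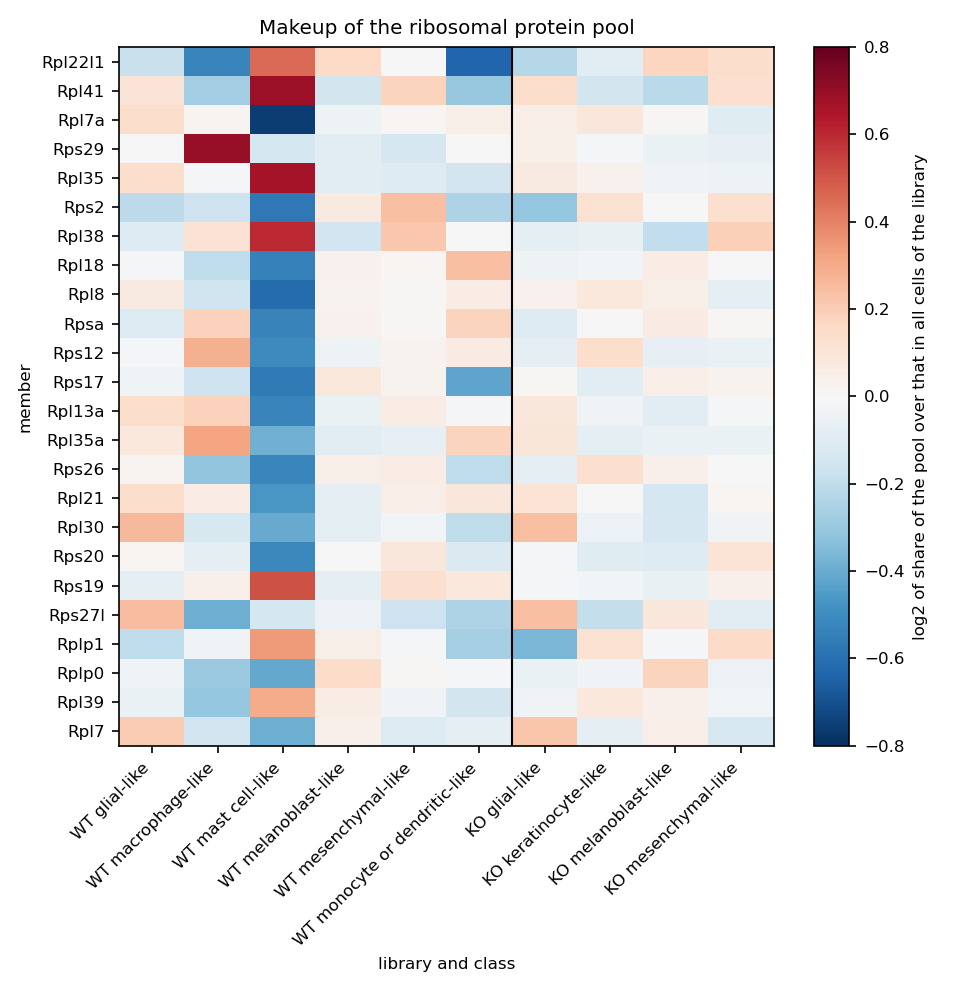
Share of the RP pool taken by a member in a class, as the log2 ratio (colour) to its share over all kept cells of the library, for 24 of the members with large SDs over WT classes. Columns are the 6 WT and 4 KO classes with at least 50 cells; in WT, *Rpl41* is at 0.68 in mast cell-like cells and *Rps29* at 0.69 in macrophage-like cells.

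Between pairs of main classes, the members past 0.25 in WT had the same sign in KO. These were 7 of 7 for melanoblast-like against mesenchymal-like, 6 of 6 for glial-like against mesenchymal-like and 9 of 9 for melanoblast-like against glial-like cells. No count over all genes was made for these pairs. The counts therefore do not show whether members differ between classes more or less than other genes. *Rps2* took a smaller part of the pool in glial-like than in mesenchymal-like cells, with a log2 ratio of -0.45 in WT and -0.44 in KO. *Rpl38* (-0.36 and -0.38) and *Rpl41* (-0.33 and -0.35) took less in melanoblast-like than in mesenchymal-like cells, and *Rps7* took more (0.27 and 0.30). Melanoblast-like cells had more *Rpl22l1* in the pool than glial-like cells (0.33 and 0.40). Other members passed 0.25 in KO alone, such as *Rplp1*, at -0.19 in WT and -0.52 in KO, and *Rpl22l1*, at -0.18 and -0.37, between glial-like and mesenchymal-like cells. Across members the WT and KO values had Spearman correlations of 0.83 (melanoblast-like against mesenchymal-like, 82 members), 0.83 (glial-like against mesenchymal-like, 82) and 0.90 (melanoblast-like against glial-like, 81), where members share a pool and are not independent, and *Rpl39l* lies far from the rest.

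Other mRNAs of the translation machinery were read for comparison, from lists of genes and among those with at least 100 UMIs in a class. Translation factors and other TOP mRNAs had median ratios of -0.10, -0.10 and -0.15 over 21 genes in the 3 main classes, close to those of the RP members. Of the 21, 1, 3 and 4 were at -0.25 or lower, beside 20.9%, 20% and 21.8% of all genes; in melanoblast-like cells it was the X-linked *Eif2s3x* (63.6 and 47.1 CPM, -0.44, -0.97 to 0.072). The elongation factor gene *Eef1a1* had 5917 and 5652 CPM (-0.066), *Tpt1* 2424 and 2535 CPM (0.065), *Npm1* 2333 and 2008 CPM (-0.22) and *Nap1l1* 466 and 552 CPM (0.25). Ribosome biogenesis genes had medians of 0.054 (21 genes), -0.11 (15) and -0.27 (13), over partly different genes. In melanoblast-like cells 9 of 21 lay below 0, beside 1854 of 3452 for all genes, and in mesenchymal-like cells 12 of 13, beside 1703 of 3126. At -0.25 or lower were 7 of the 13, beside 21.8% of all genes. Of these genes, the nucleolin gene *Ncl* was at 0.26 (0.11 to 0.40) in melanoblast-like and -0.37 (-0.55 to -0.19) in mesenchymal-like cells, and *Nop10* at -0.19 and -0.33. Proteins of the mitochondrial ribosome had medians of -0.029 (63 genes), -0.064 (61) and -0.090 (55), with *Mrpl52*, the most abundant, at 0.071, -0.025 and -0.17.

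Lists of RNA quality and stress genes differed between the libraries beside the RP genes, and their part was not tested. The 12 counted genes of the mitochondrial genome had medians of 0.14, 0.15 and 0.13, led in level by *mt-Atp6* in melanoblast-like cells (6682 and 7092 CPM, 0.086). Nuclear and ribosomal RNA-like transcripts had medians of 0.60 (3 genes), 0.67 (2) and 0.14 (3). Heat shock and early response genes had medians of -0.053 (8 genes), 0.29 (9) and 0.39 (10), with *Fos* at 103 and 186 CPM (0.86, 0.56 to 1.15) and the chaperone gene *Hsp90aa1* at 752 and 561 CPM (-0.42, -0.57 to -0.28) in melanoblast-like cells. The p53 targets, which respond when free RP proteins bind Mdm2, had medians of -0.13 (3 genes), -0.078 (2) and 0.056 (3). Of these, *Bax* had 219 and 213 CPM in melanoblast-like cells (-0.040, -0.29 to 0.20) and *Cdkn1a* 51.8 and 31.8 CPM (-0.70, -1.36 to -0.099). Few targets were counted, so the list says little at this depth.

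The genes whose level ran most like the summed RP level were sought over the 10 points of class and library with at least 50 cells, among 1424 genes outside the symbols with at least 1000 UMIs. The highest Pearson correlations were those of *Npm1* (0.90) and *Btf3* (0.90), both also on the TOP list, the nucleolar helicase gene *Ddx21* (0.90), *Brd7* (0.90), *Zfos1* (0.89), *Gnb2l1*, which encodes the ribosome-bound protein Rack1 (0.88), *C1qbp* (0.87) and *Uqcrfs1* (0.86). The points share 2 libraries and their depth, and the choice of the best among many genes raises such values.

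The promoters show a feature that the choice of members did not use. RefSeq starts on GRCm38.p6 were found for 61 members with 72 promoters, and a run of at least 6 bases that are C or T, beginning within 10 bases on either side of the start, was sought on the strand of the transcript alone. It was found in 36 of the 72 (50%), against 24.4% of 32851 promoters of all genes. Such a run has the letters of a TOP stretch, and a match is a description of letters and not of a site in use. Windows of 30 bases, 10 before the start and 20 from it, are printed for members that stood low or high in ratio or level and for *Rpl27a*, chosen for the longest run of the 72, with the run in capitals where there is one. *Rpl15*, high in KO, and *Rpl28*, low in glial-like cells, both have the run, while *Rpl41*, *Rpl10* and *Rps4x* have none in this window. The ratios of members with and without the run were not compared.
Rpl15, chr14:18270967-18270996, minus strand: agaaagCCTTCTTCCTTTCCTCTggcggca
Rpl28, chr7:4792955-4792984, plus strand: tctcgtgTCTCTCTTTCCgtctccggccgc
Rpl27a, chr7:109519185-109519214, plus strand: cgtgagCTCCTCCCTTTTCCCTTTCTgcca
Rpl41, chr10:128549149-128549178, minus strand: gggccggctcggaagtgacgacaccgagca
Rpl10, chrX:74270806-74270835, plus strand: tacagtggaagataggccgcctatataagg
Rps4x, chrX:102189372-102189401, minus strand: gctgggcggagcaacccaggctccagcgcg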

How the data were processed

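The deposited files held raw UMI counts per gene and barcode, which the authors made with Cell Ranger 2.2.0 on mm10 plus the Cre and tdTomato sequences, for 1 WT and 1 KO library of sorted E15.5 trunk skin cells. Barcodes were left out where they had fewer than 100 genes (4 WT, 6 KO), more than 40000 UMIs (0 in both) or more than 10% mitochondrial UMIs (3 WT, 12 KO); 1 WT barcode met 2 of these. Doublets called by Scrublet (9 WT, 6 KO) were kept, and removing them was an alternative. On log values of counts brought to 10000 in each cell, 2000 variable genes were chosen, 19 of them (RP, copy, translation, biogenesis, mitochondrial and sex-linked genes) were held out, and 30 principal components, 15 neighbours and Leiden clustering at resolution 1 gave 19 clusters, named from 14 marker lists. Summed UMIs per class and library gave shares with Clopper-Pearson intervals, CPM, and log2 ratios with exact conditional binomial intervals, all 95%, with no pseudocount. The arithmetic was tested on simulated data. Members were named by a rule: the 5 most abundant, the 4 highest and 4 lowest ratios per main class, the 5 largest and 3 smallest SDs of pool share, X-linked genes, paralogues, mouse mutants, stalk genes, Mdm2 binders and *Rpl36*, *Rpl10*, *Rpl41*, *Rpl35* and *Rplp1*, which the study lists. From each gene list the rule takes the 3 most abundant and the 2 highest and 2 lowest in melanoblast-like cells, of which a part is printed. A few genes that this rule or the marker lists would name are not reported here. The members and lists were chosen with earlier results of these data known. GENCODE M21 gave biotypes and transcripts, aligned with BLAST+ 2.17.0 (e-value 1e-10 for unnamed pseudogenes), and RefSeq gave promoters. Clustering ran in scanpy 1.11.5 with anndata 0.12.19, igraph 0.11.9 and, for Scrublet, scikit-image 0.26.0, the sums and intervals in numpy 2.4.6, pandas 2.3.3 and scipy 1.17.1, and the figures in matplotlib 3.10.9, all under Python 3.11.15.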

Additional observations from a re-analysis of the deposited data

Results flagged for a closer look

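The RP share went the other way in 4 smaller classes, of which neutrophil-like (0.80) and erythroid-like cells (0.60) held under 20 cells in either library. In the others its log2 KO/WT ratio was 0.099 in macrophage-like cells (96 WT and 19 KO cells) and 0.14 in adipocyte-like cells (45 and 8), while it was below 0 in the 3 main classes when all their cells were summed. Within melanoblast-like cells, cluster 0 had a ratio of 0.051 where cluster 4, led by *Mt2*, had -0.25. None of these differences was tested, since each genotype had 1 library. Copies of RP genes, all but *Rpl6l* outside the members, took 18.0% of copy and parent UMIs in the KO library over all kept cells, against 11.1% in the WT library.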

How the results depend on the processing

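The RP share ratios, -0.071 in melanoblast-like, -0.086 in glial-like and -0.10 in mesenchymal-like cells, ranged from -0.10 to 0.011, -0.11 to -0.050 and -0.12 to -0.053 over 16, 15 and 15 alternatives, and were below 0 in 15, 15 and 15. Without the melanoblast-like cluster led by *Mt2*, an alternative added after seeing the data, the melanoblast-like ratio reversed to 0.011; the cause was not tested. In the order melanoblast-like, glial-like and mesenchymal-like, the ratio was -0.097, -0.066 and -0.072 as a mean of per-cell shares; -0.10, -0.076 and -0.077 with cells thinned to 2000 UMIs (102 WT and 23 KO cells left out); -0.060, -0.050 and -0.055 in cells with 3000 to 6000 UMIs; and -0.047, -0.062 and -0.076 with RP genes and copies outside the symbols added. With the pseudogenes nearest to a member added too it was -0.036, -0.052 and -0.066, and with KO clusters weighted as in WT it was -0.094, -0.11 and -0.053, both added after seeing the data. With each library clustered alone it was -0.016 in melanoblast-like and -0.12 in mesenchymal-like cells. That clustering left unnamed a WT cluster of 187 cells with *Mt2* among its leading genes, so the first value is not independent of leaving out the cluster led by *Mt2*. At Leiden resolution 2 the mesenchymal-like ratio was -0.11 and without Scrublet calls -0.092, and at most 5% mitochondrial UMIs gave -0.095 in glial-like cells. The members at -0.25 or lower numbered 1, 4 and 2. In melanoblast-like cells they were 2 with cells thinned to 2000 UMIs, 2 with CPM of UMIs outside the RP genes, 0 with each library clustered alone and 0 as shares of the RP pool. In glial-like cells they were 2 with 3000 to 6000 UMIs and 1 as shares of the pool. In mesenchymal-like cells they were 1 with 3000 to 6000 UMIs, 0 with each library clustered alone, 0 among members with at least 1000 UMIs and 1 as shares of the pool. The causes of these shifts were not tested. The remaining alternatives, 8, 8 and 6 for the share and 12, 13 and 11 for the count, moved the share by less than its counting interval or the count by less than 1.5 times. No paired analysis was possible because each genotype had 1 library. Depth limits rare members such as *Rpl39l* outside mesenchymal-like cells and classes with under 20 cells in a library.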
